A study of Homo sapiens with 25 samples.

Results

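The RNA bound by 2 mutants of IGF2BP1 was compared directly, without the wild-type protein as the reference. One mutant, Y396E, carries glutamate in place of a tyrosine in the second disordered linker and mimics its phosphorylation. The other, RQ, carries glutamine in place of 4 arginines (R167Q, R168Q, R174Q and R178Q) of an RGG motif in the first linker. The comparison rests on 6 of the 25 RIP-seq libraries of the series, 3 of Y396E and 3 of RQ, chosen by their labels as control (PBS-treated) immunoprecipitations. Both groups were HCT116 cells, a human colorectal carcinoma line, labelled IGF2BP2 KO, IGF2BP3 KO and Tet-OsTIR1-PURO, and they differed in the label mCherry-IGF2BP1 Y396E or mCherry-IGF2BP1 RQ. The fusion protein was pulled down through mCherry, and the RNA that came with it was sequenced. Each mutant was introduced with a lentivirus and kept as 1 population of cells sorted in a narrow gate of mCherry, so the mutation and the cell population that carries it cannot be told apart. The 3 libraries of a group came from dishes plated and grown independently. The other libraries used below were 3 of wild-type and 3 of S181E IGF2BP1 under the same control conditions, 3 of Y396E and 2 of RQ after 2 h with 500 µM sodium arsenite, and 1 parental library for each treatment, whose genotype label is HCT116 alone.

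IGF2BP1 is an oncofetal RNA-binding protein with RNA recognition motifs at its start and KH domains in the rest of the protein, joined by disordered linkers. It binds the untranslated and coding parts of many mRNAs, and it is known for protecting targets from decay or from microRNAs and for delaying their translation. In arsenite-stressed cells IGF2BP1 and its mRNAs gather in stress granules.

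The codons changed in the 2 mutants lie in the gene IGF2BP1 on the plus strand of chromosome 17 (hg38). They are shown here in the reference sequence of the genome, because the mutated constructs were not analysed here. Capitals mark the codons replaced. In exon 6, codons 165 to 180 span chr17:49038259-49038306 and hold the 4 arginine codons of RQ. In exon 10, codons 388 to 398 span chr17:49043512-49043544 and hold the tyrosine codon of Y396E.
Linker 1, RQ: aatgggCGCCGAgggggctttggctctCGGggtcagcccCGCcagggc
Linker 2, Y396E: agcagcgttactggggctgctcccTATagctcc
The RQ changes remove positive charge from linker 1, and Y396E adds a negative charge to linker 2.

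The Y396E control libraries held 39499274, 23358347 and 30590703 counts, and the RQ control libraries held 60273548, 37341380 and 28273651. The mRNA of the bait, IGF2BP1, had 94.9, 105 and 69.1 CPM (counts scaled to the size of the library) in Y396E and 118, 102 and 98.3 in RQ. These values overlapped, and the difference did not pass the test (log2 −0.24 ± 0.12 SE, adjusted p = 0.13, edgeR), though it did when Y396E replicate 2 was left out (−0.38, adjusted p = 0.036) and with scaling factors taken from genes not enriched over the parental precipitate (−0.35, adjusted p = 0.027). The parental control library held 0 IGF2BP1 counts, where 3 counts would be 1.95 CPM. RNA of both deleted paralogs was still counted: IGF2BP2 at 180, 155 and 211 CPM in Y396E and 203, 176 and 279 in RQ, and IGF2BP3 at 379, 349 and 363 CPM in Y396E and 270, 266 and 290 in RQ. The IGF2BP2 values overlapped, with no call (log2 −0.27, adjusted p = 0.18; −0.40 and 0.043 without RQ replicate 2), while IGF2BP3 was higher in Y396E (log2 0.40 ± 0.08 SE, adjusted p = 0.00062). Of 8 markers of colorectal epithelium, 7 passed the filter on low counts, and their summed level was 1120 to 1400 CPM in Y396E and 998 to 1550 CPM in RQ. That sum was larger in the parental precipitates, at 2520 CPM in control and 3750 in arsenite. Of the tested markers, 0 were at least 4-fold over the parental control library. VIL1, the intestinal villin, was at 0 in 4 of the 6 libraries. Among 14 markers of leukocytes, fibroblasts, endothelium and packaging cells, 7 to 12 were at 0 in a library, including PTPRC of leukocytes and CDH5 of endothelium in all 6, and the sum was 21.4 to 32.0 CPM. In such bulk samples, fewer cells of a type and less RNA per cell cannot be told apart.

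Among 8734 protein-coding genes tested, 1046 were lower in the Y396E than in the RQ precipitate (12% of the genes tested) and 1110 were higher (12.7%). Calls required an adjusted p below 0.05 and a difference over 20% in edgeR's quasi-likelihood test, fitted to all 23 mCherry libraries. The median change was −0.56 on the log2 scale for lower genes and 0.53 for higher genes, against 0.02 for all genes, and the extremes were −2.34 and 2.93. Only 96 lower and 63 higher genes changed by more than 2-fold. The 3 Y396E values did not overlap the 3 RQ values for 973 of the lower and 1047 of the higher genes, while 37.8% of all genes tested were without overlap. The balance of lower and higher genes depended on the scaling of the libraries: 48.5% of calls were lower with TMM factors, 19.3% (550 lower, 2295 higher) with total counts, which moved the median of all genes to 0.20, and 69.1% (1472 lower, 658 higher) with factors from genes at or below their parental level, which moved it to −0.09. Changes below are relative to the TMM scale. Total RNA of the same lines was not analysed here, so the level of an mRNA in the cell and its recovery with IGF2BP1 cannot be told apart.

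HMGA2 and PABPC1 were the lowest in Y396E of 16 tested mRNAs known as IGF2BP1 targets. HMGA2, a chromatin protein of embryonic and tumour cells whose mRNA IGF2BP1 shields from let-7, had 1599, 1370 and 1680 CPM in Y396E and 3345, 2989 and 3526 in RQ. All Y396E libraries were below all RQ libraries, a 2.12-fold difference (log2 −1.08 ± 0.12 SE, adjusted p = 6.4e-07, edgeR). PABPC1, the cytoplasmic poly(A)-binding protein, had 19599, 16113 and 17893 CPM in Y396E and 46691, 42254 and 55051 in RQ. Again the groups did not overlap, and the difference was 2.69-fold (log2 −1.43 ± 0.12 SE, adjusted p = 2e-08). Against the wild-type libraries, HMGA2 was at −0.89 in Y396E and 0.20 in RQ, and PABPC1 at −2.0 in Y396E and −0.57 in RQ. Both contrasts share the wild-type libraries.

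GARS1, the glycyl-tRNA synthetase, had 73.0, 76.6 and 86.2 CPM in Y396E and 117, 105 and 137 in RQ, which did not overlap (log2 −0.60 ± 0.11 SE, adjusted p = 0.00048). ACTB, the beta-actin mRNA whose zipcode element IGF2BP1 binds, went the other way, with 1047, 1240 and 1228 CPM in Y396E and 710, 811 and 447 in RQ (log2 0.84 ± 0.15 SE, adjusted p = 0.00031). Its level in the wild-type and S181E libraries was 0.311 times that in the parental precipitate, below the background of the precipitation. MYC, another target, had 536, 593 and 676 CPM in Y396E and 634, 672 and 600 in RQ. These ranges overlapped (log2 −0.08, adjusted p = 0.57), as did those of EIF2A (−0.02, adjusted p = 0.91) and of XBP1, the transcription factor of the unfolded protein response (−0.22, adjusted p = 0.35; −0.43 and 0.04 without RQ replicate 3). PHC3, a Polycomb protein, stood at −0.24 (adjusted p = 0.061) and LIPA, the lysosomal acid lipase, at 0.43 (adjusted p = 0.055), both without a call. PHC3 passed without Y396E replicate 3 (−0.30, adjusted p = 0.044) and with factors from genes at the parental level (−0.35, adjusted p = 0.03). LIPA passed without RQ replicate 1 (0.60, adjusted p = 0.019) and also with total counts, DESeq2, all biotypes and the replicate block, at 0.41 to 0.60 (adjusted p = 0.014 to 0.042). CCDC127 and IGF2 were too low to be tested. Of the 16 targets, 3 were lower (18.8%) and 3 higher (18.8%), against 12% and 12.7% of all genes tested. Their median of −0.09 turned to 0.08 with total counts. A separate fit took genes at least 4-fold over the parental control library, whose counts were raised to at least 3. It tested 5 of these targets, with 2 lower, 0 higher and a median of −0.30.

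**Figure D1:**
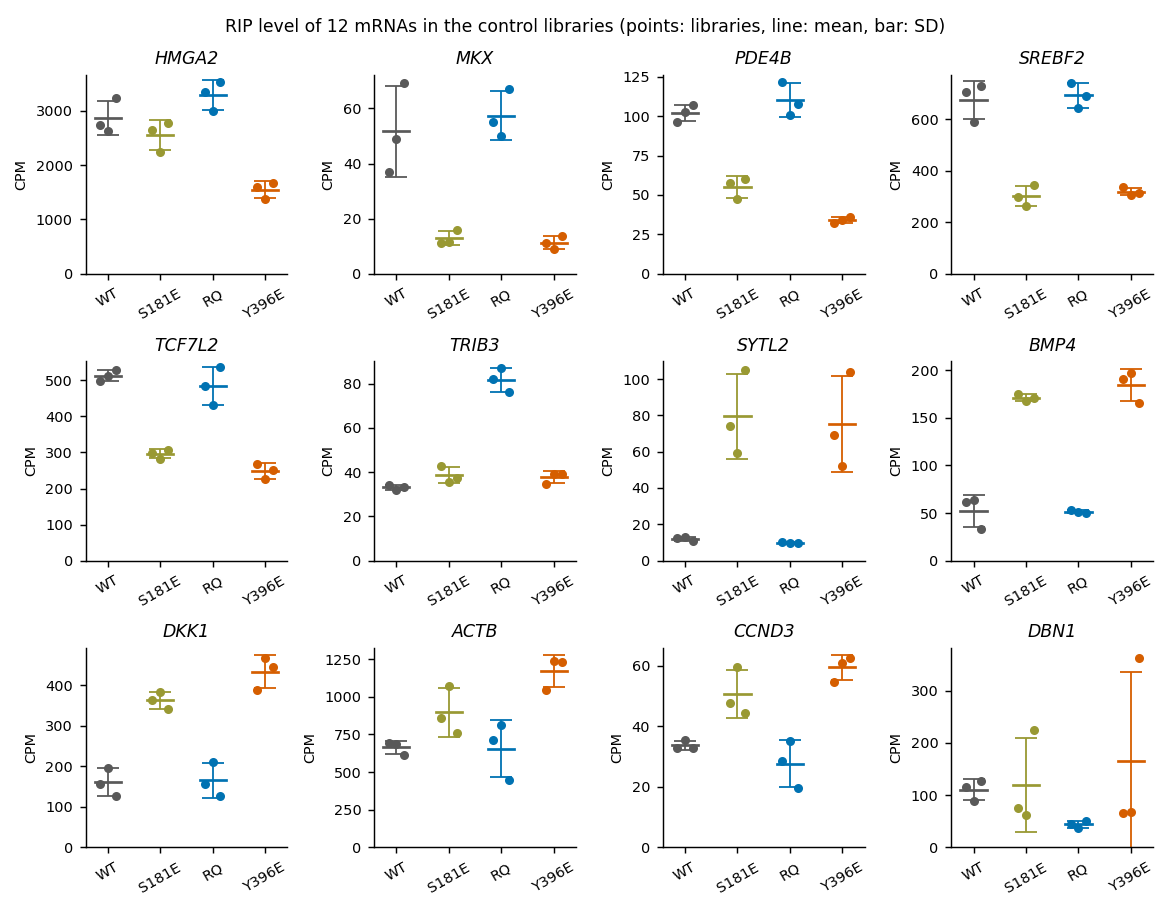
CPM of 12 mRNAs in each control library (y axis, from 0), with points for the 3 libraries of wild-type, S181E, RQ and Y396E, a line for the mean and bars for the SD. HMGA2 lies between 1370 and 1680 CPM in Y396E and between 2989 and 3526 in RQ, TRIB3 is high in RQ alone, and in DBN1 Y396E replicate 3 stands apart at 363.

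The genes lowest in Y396E included regulators, secreted proteins and several genes of the long arm of chromosome 8. MKX, a homeobox transcription factor of tendon, was the lowest, with 11.3, 9.02 and 13.6 CPM in Y396E and 54.9, 49.9 and 67.2 in RQ. That was a 5.06-fold difference without overlap (log2 −2.34 ± 0.22 SE, adjusted p = 6.3e-08, edgeR). KLK7, a secreted serine protease, had 42.6, 44.7 and 48.3 CPM in Y396E and 153, 144 and 129 in RQ, the smallest standard error of the 12 lowest genes (log2 −1.65 ± 0.09 SE, adjusted p = 1.6e-11). PDE4B, which degrades cyclic AMP, had 32.1, 33.9 and 36.1 CPM in Y396E and 122, 101 and 108 in RQ (log2 −1.70). Amphiregulin (AREG), a ligand of the EGF receptor, had 49.7, 58.4 and 53 CPM in Y396E and 169, 237 and 129 in RQ (log2 −1.73). None of these ranges overlapped. SAT1, which acetylates polyamines, stood at −1.96. RPL41 at −2.21, RPS20 at −1.62 and the metallothionein MT1E at −1.64 have near-identical copies in the genome, so their counts are uncertain. NIPAL2, UQCRB of respiratory complex III and RB1CC1 of the autophagy initiation complex, all on chromosome 8 as is RPS20, stood at −1.87, −1.57 and −1.54. All 12 kept their calls under every alternative in which they were tested.

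A block of chromosome 8 was lower as a whole in Y396E. Of 313 genes tested on this chromosome, 150 (47.9%) were lower and 23 (7.35%) higher, against 10.6% lower and 12.9% higher among the genes of all other chromosomes. The lower genes lay beyond 45 Mb, on the long arm, where 135 of 196 genes (68.9%) were lower, 2 (JPH1 and KLF10, named after their values were seen) were higher and 182 had a log2 change below 0. The median there was −0.64, with quartiles of −0.87 and −0.37. Below 45 Mb, 15 of 117 genes were lower and 21 higher, with a median of 0.01.

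The level of this block was alike in the libraries of a group. As the median deviation of its 196 genes from the mean of the control libraries, it was −0.32, −0.35 and −0.29 in Y396E and 0.34, 0.31 and 0.28 in RQ, which did not overlap. The wild-type libraries, at 0.26, 0.28 and 0.25, lay beside RQ, and the S181E libraries, at −0.21, −0.26 and −0.18, lay nearer to Y396E. The median difference was 0.05 for RQ minus wild-type, −0.57 for Y396E minus wild-type and −0.06 for Y396E minus S181E. In windows of 10 Mb, the 10 windows beyond 50 Mb had medians from −1.02 to −0.46, and the 5 windows before it from −0.20 to 0.16. Among 277 windows elsewhere with at least 5 tested genes, only the mitochondrial genome (−0.57) and 170 to 180 Mb on chromosome 4 (−0.52, 5 genes) were as low.

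**Figure D2:**
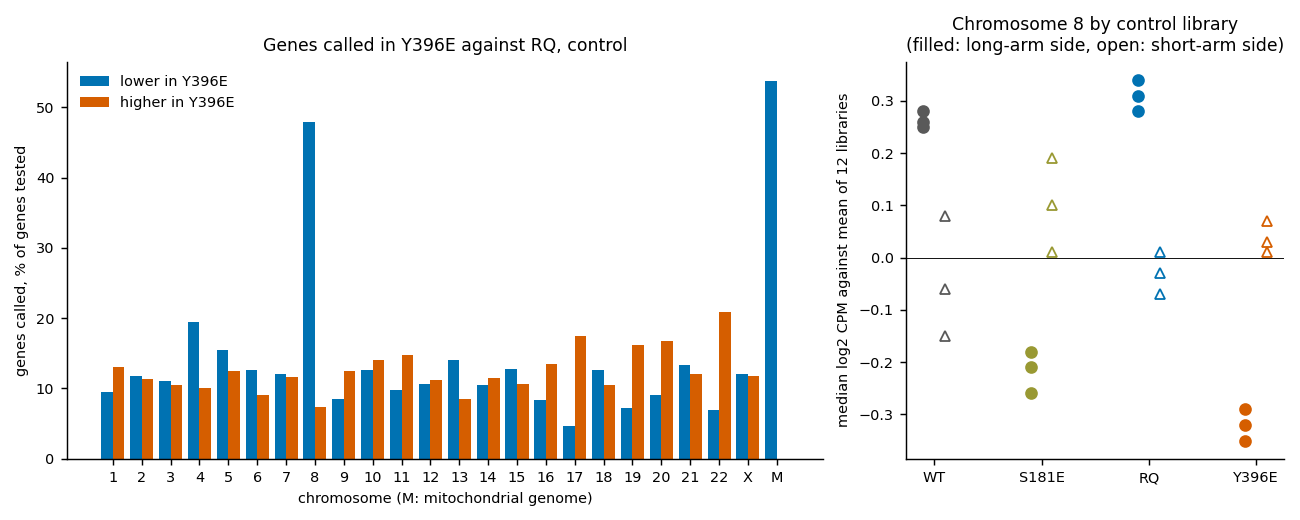
Left, percent of tested genes on each chromosome called lower (blue) or higher (orange) in Y396E than in RQ in control; right, median log2 CPM of chromosome 8 genes in each control library against the mean of the 12 control libraries, with filled circles beyond 45 Mb and open triangles below it. Chromosome 8 has 47.9% lower genes, and its genes beyond 45 Mb lie at −0.35 to −0.29 in Y396E and 0.28 to 0.34 in RQ.

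Known members of the block included PABPC1, RB1CC1 and NIPAL2, and also EIF3E and EIF3H of the initiation factor eIF3 (−1.29 and −0.74), SQLE of cholesterol synthesis (−1.30), E2F5 (−1.38), YTHDF3, a reader of m6A (−0.97), AGO2, the slicer of microRNA silencing (−0.86), and RRM2B, a p53 target (−0.83). MYC lies in the block as well and was not called (−0.08, adjusted p = 0.57). Genes beyond 45 Mb made 12.9% of all lower calls. With the genes of chromosome 8 left out of the fit, 976 genes were lower and 995 higher. The part of DNA copy number in this result was not tested, because neither genomic DNA nor total RNA was analysed here.

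The genes highest in Y396E included membrane traffic, signalling and transcription factors. SYTL2, a synaptotagmin-like protein that guides secretory vesicles, was the highest, with 69.0, 52.2 and 104 CPM in Y396E and 10.5, 9.56 and 9.56 in RQ. That was a 7.60-fold difference without overlap (log2 2.93 ± 0.21 SE, adjusted p = 2.6e-09, edgeR). BMP4, a secreted ligand of the TGF-beta family, had 191, 197 and 166 CPM in Y396E and 53, 51.2 and 50.4 in RQ (log2 1.84 ± 0.16 SE, adjusted p = 2.1e-08). The zinc finger factor KLF2 had 74.0, 71.4 and 54.7 CPM in Y396E and 23.9, 22.2 and 13.1 in RQ (log2 1.75). In both genes the groups did not overlap. GATA2, a transcription factor of blood and endothelium, stood at 1.64, LYPD6, a modulator of WNT and acetylcholine receptor signalling, at 1.53, the alpha-tubulin TUBA4A at 1.53, the calcium sensor VSNL1 at 2.60 and the matrix protein nephronectin (NPNT) at 1.48. SYTL2 and BMP4 were little enriched, with levels in the wild-type and S181E libraries 1.60 and 1.83 times the parental one.

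DBN1 and TPRN, also among the 12 highest genes, rested on 1 library. DBN1, which bundles actin filaments, had 66.2, 68.6 and 363 CPM in Y396E and 45.5, 37.0 and 50.9 in RQ (log2 1.90, adjusted p = 0.0048, edgeR). Taperin (TPRN), an actin-associated protein, had 14.3, 10.9 and 46.4 CPM in Y396E and 10.1, 8.33 and 5.99 in RQ (log2 1.54, adjusted p = 0.011). In both genes Y396E replicate 3 was far above the other two Y396E libraries, which still did not overlap the RQ libraries. Without that library, DBN1 fell to 0.60 (adjusted p = 0.21) and TPRN to 0.61 (0.25). Of the 1110 higher genes, 13 (1.17%) had Y396E replicate 3 more than 2-fold above both other Y396E libraries, and 369 were not called without that library. Leaving out other Y396E libraries also cost calls: 770 genes were higher without replicate 3, 760 without replicate 2 and 877 without replicate 1.

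**Figure D3:**
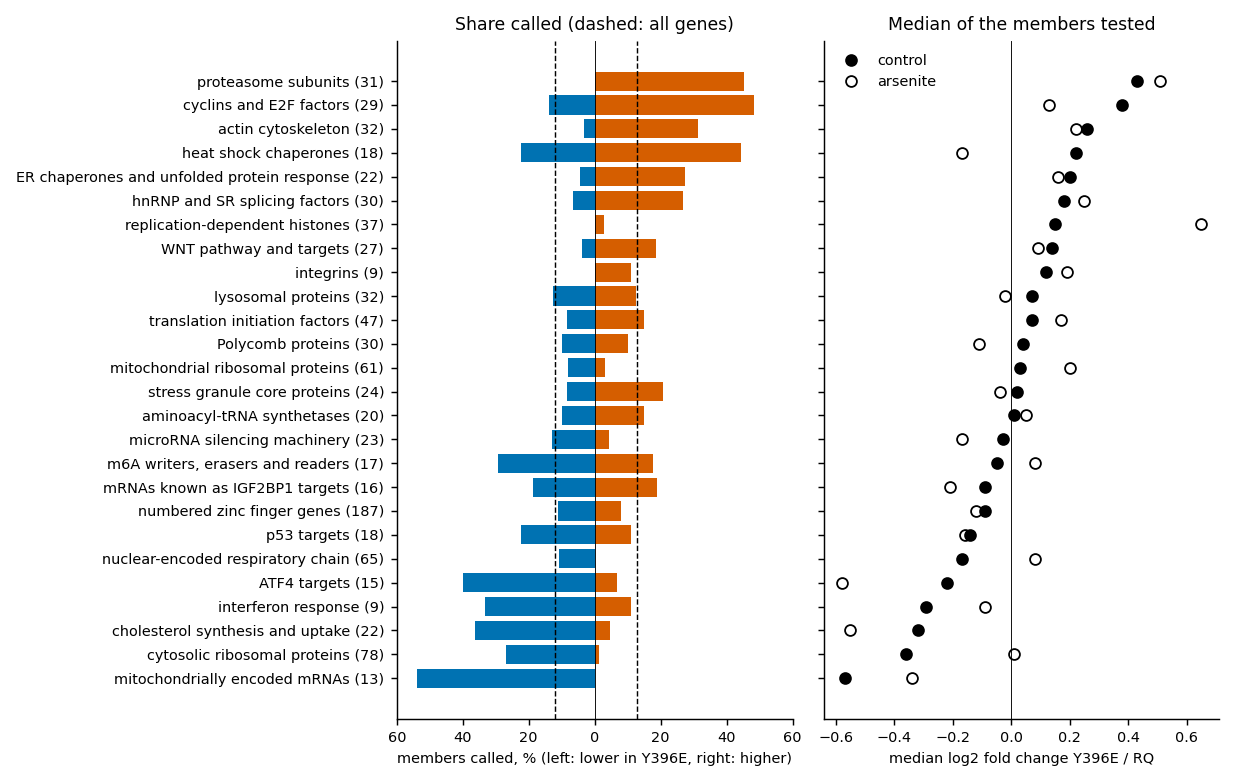
Left, percent of the tested members (number in brackets) of each gene list called lower (blue, to the left) or higher (orange, to the right) in Y396E than in RQ in control, with dashed lines at the share of all genes tested; right, their median log2 fold change in control (filled) and arsenite (open). Mitochondrially encoded mRNAs have the lowest control median (−0.57) and proteasome subunits the highest (0.43) of the lists shown.

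The wild-type mean was nearer to RQ than to Y396E in 77.2% of the 2156 called genes and nearer to Y396E in 22.8%, and the S181E mean was nearer to Y396E in 59.1%. These shares were taken among called genes only, without a share over all genes tested. Single genes differed in where the wild-type and S181E values lay. MKX had 36.9, 48.8 and 69.3 CPM in wild-type and 11.1, 11.6 and 15.7 in S181E, and stood at −2.19 for Y396E minus wild-type (adjusted p = 1.4e-07, edgeR) and at 0.15 for RQ minus wild-type (0.71). SYTL2 had 12.5, 12.9 and 10.6 CPM in wild-type and 73.9, 59.5 and 105 in S181E, with 2.64 for Y396E (adjusted p = 1.3e-08) and −0.28 for RQ (0.47). In both genes the RQ values lay beside or among the wild-type ones, and the Y396E values among those of S181E or just beside them. For TRIB3 the reverse held, with 34.2, 32.0 and 33.2 CPM in wild-type and 42.6, 35.7 and 37.3 in S181E, near the Y396E level and far below RQ. It stood at 0.18 for Y396E minus wild-type (adjusted p = 0.2) and 1.30 for RQ minus wild-type (5.3e-08). SLC7A11 and PSAT1 were above wild-type in both mutants, by 0.56 and 0.57 in Y396E and by 1.53 and 1.40 in RQ. The contrasts with wild-type share its libraries.

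The lists of genes of the mitochondrion, the ribosome and lipid metabolism are read against 12% lower among all genes. All 13 mitochondrially encoded mRNAs had a log2 change below 0, and 7 were lower, with a median of −0.57. MT-ND3, of complex I, had 141, 133 and 142 CPM in Y396E and 248, 341 and 364 in RQ, which did not overlap (log2 −1.19 ± 0.18 SE, adjusted p = 5.2e-05, edgeR). MT-CYB, of complex III, followed at −0.82. These mRNAs, which are made and translated inside mitochondria, took 8.395 to 13.43% of the protein-coding counts of a Y396E library and 13.52 to 17.98% of an RQ library. Only 2 of the 13 were called in a fit of the compared groups alone. Of 65 nuclear genes of the respiratory chain, 7 (10.8%) were lower, a share no larger than that among all genes, and 0 were higher. These 7 included UQCRB of complex III and ATP5MK of ATP synthase (−0.99), and 2 of the 7 lie on chromosome 8. Their median of −0.17 moved to 0.01 with total counts, and 17 were lower without RQ replicate 3.

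Of 78 cytosolic ribosomal protein mRNAs, 21 were lower and 1 higher, with a median of −0.36. After RPL41 and RPS20, RPL39 (−1.25) and RPS27 (−0.89) were the lowest, and all have processed pseudogenes that can take reads. The count depended on single libraries, with 42 lower without RQ replicate 3, 9 without RQ replicate 2 and 11 without Y396E replicate 3. It was 9 with total counts and 35 with factors from genes at the parental level. Only 5 of the 78 were at least 4-fold over the parental precipitate. In a fit of such genes alone 2 of them were lower and 1 higher. In contrast, 61 mitochondrial ribosomal proteins held 5 lower and 2 higher genes, with a median of 0.03 that turned to −0.06 with factors from genes at the parental level.

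Cholesterol synthesis and uptake had 8 lower and 1 higher of 22 genes, with a median of −0.32. SREBF2, the transcription factor that switches this pathway on, had 336, 306 and 315 CPM in Y396E and 741, 645 and 689 in RQ, which did not overlap (log2 −1.12 ± 0.10 SE, adjusted p = 2.8e-08, edgeR). The enzymes SQLE and TM7SF2 stood at −1.30 and −0.86, and INSIG1, which retains the SREBP complex in the endoplasmic reticulum, at −0.64. Only 5 were lower without RQ replicate 1 or without Y396E replicate 3, and 5 with total counts. In a fit of genes at least 4-fold over the parental precipitate 7 were tested, with 4 lower and 0 higher.

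Of 15 targets of ATF4, the transcription factor of the integrated stress response, 6 were lower (40.0%) and 1 higher (6.67%). Their median was −0.22, and among all genes 12% were lower and 12.7% higher. TRIB3, a pseudokinase that restrains ATF4, had 34.5, 39.3 and 39.1 CPM in Y396E and 82.0, 87.2 and 76.2 in RQ, without overlap (log2 −1.12 ± 0.10 SE, adjusted p = 6.3e-08, edgeR). The cystine transporter SLC7A11 (−0.97) and PSAT1 of serine synthesis (−0.82) were lower too, and ATF3 was higher at 0.73. With total counts 4 of the 15 were lower and 4 higher, with a median of −0.03. In a fit of genes at least 4-fold over the parental precipitate 6 were tested, with 2 lower, 1 higher and a median of 0.08.

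Lists higher in Y396E came from the cell cycle, protein folding and turnover, and the cytoskeleton, and are read against 12.7% higher among all genes. Of 31 proteasome subunits, 14 were higher and 0 lower, with a median of 0.43. PSMD11, a lid subunit, had 131, 137 and 169 CPM in Y396E and 90.4, 90.1 and 78.5 in RQ, without overlap (log2 0.75 ± 0.10 SE, adjusted p = 1.4e-05, edgeR). PSMA4 of the core (0.80), PSMC3 of the ATPase ring (0.76) and PSMD1 of the base (0.73) were similar. The count fell to 6 without RQ replicate 3 and to 6 without Y396E replicate 2. Only 7 of the 31 were at least 4-fold over the parental precipitate. In a fit of such genes alone 3 of them were higher.

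Of 29 cyclins and E2F factors, 14 were higher and 4 lower, with a median of 0.38. Cyclin A2 (CCNA2), of S phase and entry into mitosis, had 87.9, 87.4 and 121 CPM in Y396E and 49.6, 43.7 and 45.6 in RQ (log2 1.09 ± 0.12 SE, adjusted p = 7.5e-07, edgeR). Cyclin D3 (CCND3), of the G1 phase, had 54.8, 61.1 and 62.6 CPM in Y396E and 28.5, 35.1 and 19.6 in RQ (log2 1.10). Neither gene overlapped between the groups. E2F2 stood at 0.86, and 2 of the 4 lower genes, E2F5 among them, lay on chromosome 8. With factors from genes at the parental level 9 were higher, and without Y396E replicate 2 the lower genes numbered 2. In a fit of genes at least 4-fold over the parental precipitate 11 were tested, with 4 higher and 4 lower.

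Heat shock chaperones moved both ways, with 8 higher and 4 lower of 18 and a median of 0.22. HSPA8, the constitutive HSP70, had 411, 444 and 418 CPM in Y396E and 267, 253 and 197 in RQ, without overlap (log2 0.83 ± 0.10 SE, adjusted p = 3.4e-06, edgeR). HSPE1 and HSPD1, which together fold proteins in the mitochondrial matrix, were lower at −1.0 and −0.79. Of 22 ER chaperones and unfolded protein response genes 6 were higher and 1 lower, with a median of 0.20, but 2 were higher without RQ replicate 3 or without Y396E replicate 2, and 3 without Y396E replicate 3. Among 30 hnRNP and SR splicing factors, 8 were higher and 2 lower, with HNRNPF at 0.64 and HNRNPK at 0.51. Only 2 were higher without RQ replicate 3, 3 without Y396E replicate 2 and 4 without the first replicate of either group. Few members of these lists were at least 4-fold over the parental precipitate: 2 heat shock genes, 2 ER genes and 5 splicing factors. In a fit of such genes alone 1 heat shock gene and 1 splicing factor were lower, and 0 members were higher.

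Of 32 genes of the actin cytoskeleton, 10 were higher and 1 lower, with a median of 0.26. FLNA, a crosslinker of actin filaments, had 202, 237 and 578 CPM in Y396E and 126, 118 and 139 in RQ (log2 1.41 ± 0.30 SE, adjusted p = 0.0017, edgeR). The groups did not overlap, and Y396E replicate 3 was again the highest. FLNA kept its call without that library (0.77, adjusted p = 0.031), ACTN4 lost it (0.69 with and 0.33 without), and 4 of the 32 genes were then higher. With total counts the higher genes numbered 19, and with factors from genes at the parental level 5.

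The WNT list held 5 higher (18.5%) and 1 lower (3.7%) of 27 genes, with a median of 0.14. Among all genes 12.7% were higher and 12% lower. DKK1, a secreted WNT antagonist, had 390, 468 and 445 CPM in Y396E and 157, 211 and 128 in RQ (log2 1.39 ± 0.16 SE, adjusted p = 7.9e-07, edgeR). TCF7L2, the main TCF of the colon epithelium, had 269, 225 and 252 CPM in Y396E and 485, 432 and 537 in RQ (log2 −0.96 ± 0.09 SE, adjusted p = 6.7e-08). Both were without overlap and went in opposite directions. Beta-catenin itself (CTNNB1) was higher at 0.56, and the WNT deacylase NOTUM at 0.80.

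Other lists held few calls or calls in both directions, and are read against 12% lower and 12.7% higher among all genes. Shares lower were largest for epithelial (42.9%), interferon (33.3%), m6A (29.4%) and p53 genes (22.2%), in lists of at most 18 tested genes. The share higher was largest for stress granule genes (20.8%). Of 24 stress granule core proteins 2 were lower, PABPC1 among them, and 5 higher, with DDX3X at 0.49. Of 17 m6A writers, erasers and readers 5 were lower and 3 higher, and 2 of the lower genes, YTHDF3 and VIRMA (−0.59), lay on chromosome 8. Of 47 initiation factors 4 were lower and 7 higher, with the cap-binding EIF4E3 at 1.02 and EIF5 at 0.82. For microRNA silencing 3 of 23 were lower and 1 higher, with the deadenylase CNOT6 at −0.66. Numbered zinc finger genes had 21 lower and 15 higher of 187. Polycomb proteins had 3 lower and 3 higher of 30, with CBX2 at 0.84 and PCGF6 at −0.70. The p53 targets had 4 lower and 2 higher of 18, with GDF15 at −0.98. Lysosomal proteins had 4 lower and 4 higher of 32, aminoacyl-tRNA synthetases 2 lower and 3 higher of 20. Interferon response genes had 3 lower and 1 higher of 9, integrins 0 lower and 1 higher (ITGB4, 0.67) of 9, and replication-dependent histones 0 lower and 1 higher of 37. The epithelial markers had 3 lower and 1 higher of 7, led by the tight junction protein CLDN4 with 164, 186 and 163 CPM in Y396E and 358, 437 and 307 in RQ (log2 −1.10). PAX2, the 1 tested marker of another cell type, was not called. Medians of the lists in this paragraph lay between −0.29 and 0.28, and those of stress granule, m6A, initiation, microRNA, zinc finger, Polycomb, p53, lysosomal, synthetase and epithelial genes changed sign with the scaling. Counts in these lists moved with single libraries: the lower zinc finger genes numbered 36 without RQ replicate 2, 12 without RQ replicate 3 and 13 without Y396E replicate 2, and 1 stress granule gene was higher without RQ replicate 2.

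The same 2 mutants were also compared in arsenite, in libraries that the control comparison does not use. There 949 genes were lower in Y396E (10.9% of those tested) and 476 higher (5.45%). Of the 1046 genes lower in control, 1006 (96.2%) had the same sign in arsenite, 574 (54.9%) were called in the same direction and 1 in the opposite one. Of the 1110 higher genes, 997 (89.8%) had the same sign, 291 (26.2%) were called alike and 5 oppositely. The sign was shared by 73.6% of all genes tested. Calls in both treatments with the same direction numbered 865, which was 40.1% of the control calls and 60.7% of the arsenite calls. Across the 8734 genes, which are not independent replicates, the differences correlated with r = 0.70 and rho = 0.66, and with r = 0.67 outside chromosome 8. With only 2 RQ libraries in arsenite, the calls rested on few samples: without RQ arsenite replicate 1, 325 genes were lower, 75 higher and 328 shared with control, and leaving out another arsenite library left 211 to 289 higher genes, with 627 lower without Y396E replicate 2. The balance again moved with the scaling: 66.6% of calls were lower with TMM, 36.6% with total counts and 83.9% with factors from genes at the parental level.

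HMGA2 had 639, 577 and 696 CPM in the Y396E arsenite libraries and 1759 and 1490 in RQ, without overlap (log2 −1.35 ± 0.13 SE, adjusted p = 1.3e-07, edgeR). MKX had 4.91, 5.84 and 4.62 CPM in Y396E and 24.5 and 21.3 in RQ, at −2.16. DKK1 had 246, 246 and 201 CPM in Y396E and 48.8 and 54.8 in RQ, at 2.16. All 3 genes kept their control direction. The 12 lowest genes were called lower in arsenite too. Among the 12 highest, SYTL2 (2.34), VSNL1 (2.16), TUBA4A (1.44), GATA2 (1.30), BMP4 (1.25), LYPD6 (1.14) and KLF2 (0.97) were called, while DBN1 (0.99), TPRN (0.39) and NPNT (0.84) were not. For chromosome 8 beyond 45 Mb the median was −0.63, with 128 of 196 genes lower and 1 higher. The mRNA of the bait differed in arsenite, with IGF2BP1 at 50.1, 50.5 and 50.5 CPM in Y396E and 77.8 and 75.6 in RQ (log2 −0.61 ± 0.13 SE, adjusted p = 0.0021). The bait protein was not measured here.

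**Figure D4:**
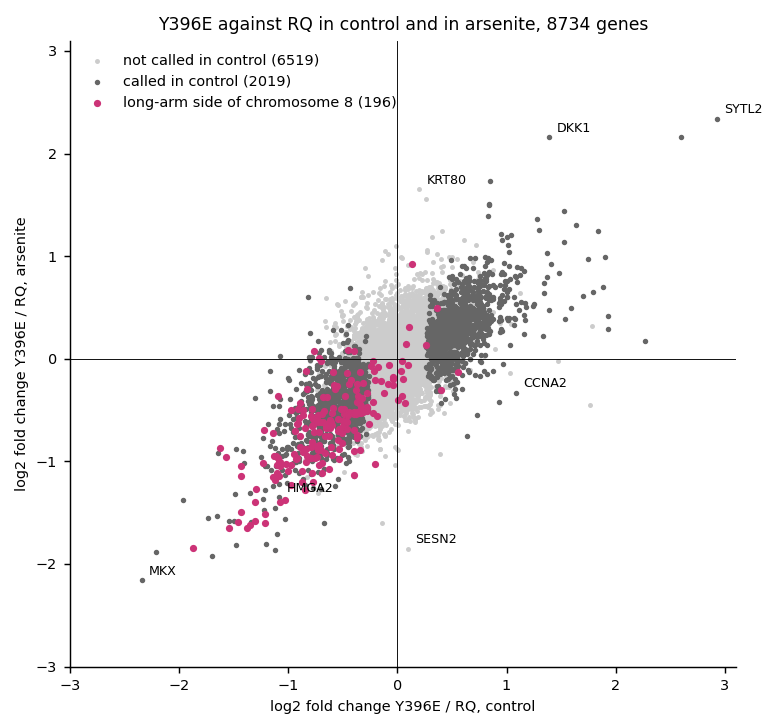
Log2 fold change of Y396E over RQ for each of 8734 genes in control (x axis) and arsenite (y axis), in light grey for genes not called in control, dark grey for called genes and pink for chromosome 8 beyond 45 Mb. The points follow a rising band with r = 0.70, the pink genes have medians of −0.64 and −0.63, and SESN2, KRT80 and CCNA2 lie off the band.

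Of the lists, cholesterol genes had 11 lower and 0 higher of 22 in arsenite with a median of −0.55, ATF4 targets 9 lower and 0 higher of 15 with −0.58, and proteasome subunits 12 higher and 1 lower of 31 with 0.51. These kept the direction seen in control. Mitochondrially encoded mRNAs had 4 lower and a median of −0.34. The known IGF2BP1 targets had 7 lower and 0 higher of 16, with a median of −0.21. Among all genes tested in arsenite, 10.9% were lower and 5.45% higher. Ribosomal protein mRNAs were at 0.01 with 6 lower and 2 higher of 78, and cyclins and E2F factors at 0.13 with 4 higher and 5 lower of 29. Histone mRNAs, which had 1 call in control, had 8 higher and 0 lower of 37 and a median of 0.65, with near-identical copies that make single members uncertain. Whether these medians differ between the treatments was not tested.

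The difference between the mutants changed with treatment for 34 genes (0.389%), 25 of them lower and 9 higher in arsenite relative to control, by an interaction term of the same fit. This count fell to between 4 and 17 when any library other than RQ control replicate 3 was left out, and the 3 genes described here kept their call in every alternative. SESN2, a stress-induced regulator of mTORC1, was named after its value was seen. It had 14.0, 16.3 and 14.5 CPM in Y396E and 15.7, 14.5 and 11.2 in RQ in control, against 38.7, 38.6 and 46.3 in Y396E and 137 and 161 in RQ in arsenite. The groups overlapped in control and not in arsenite, and the interaction was −1.95 (adjusted p = 5.8e-06, edgeR). CCNA2 was at 1.09 in control and −0.33 in arsenite, where it had 214, 196 and 199 CPM in Y396E and 277 and 231 in RQ (interaction −1.42, adjusted p = 0.00019). ATF3, at 54.2, 46 and 42.7 CPM in Y396E and 31.0, 27.1 and 27.8 in RQ in control, was at 166, 188 and 178 in Y396E and 257 and 263 in RQ in arsenite (interaction −1.28, adjusted p = 0.00073). Its groups did not overlap in either treatment, and their order turned.

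The difference between the mutants varied with features of the transcripts that the grouping did not use. In quintiles of the GC content of the canonical transcript, the median rose from −0.15 in the lowest quintile, through −0.05, 0.02 and 0.12, to 0.17 in the highest. Lower genes made 20.7% of the lowest quintile and 5.78% of the highest, and higher genes 4.92% and 20.0%. Across genes rho was 0.31 in control and 0.23 in arsenite. In single control libraries, the highest quintile minus the lowest was 0.26, 0.39 and 0.13 in Y396E and −0.02, 0.09 and −0.29 in RQ, which did not overlap. It was 0.30, 0.01 and −0.10 in the wild-type libraries, which overlapped both mutants. In the S181E libraries it was −0.27, −0.06 and −0.36, which overlapped RQ and not Y396E. The part of GC-dependent library preparation in the gene differences was not tested.

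With the length of the 3′ UTR, the site of many IGF2BP1 contacts, the medians ran the other way, at 0.10, 0.11, 0.04, −0.02 and −0.10 from the shortest to the longest quintile (rho −0.21 across genes in both treatments). The longest quintile minus the shortest was −0.21, −0.40 and 0.00 in the Y396E libraries and −0.03, −0.28 and 0.39 in the RQ libraries, which overlapped. Within each replicate number Y396E was below RQ. Genes with the shortest coding sequences, which include the ribosomal proteins, had a median of −0.10, against 0.02 to 0.08 in the other quintiles. In arsenite the shortest coding quintile was at 0.01.

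The difference was also set against enrichment over the background of the precipitation. Enrichment was the mean CPM of the wild-type and S181E control libraries over a parental library, so neither mutant entered it. Parental counts were raised to at least 3. Over the parental control library the medians were 0.12, 0.02, −0.03, 0.05 and −0.05 in bins of under 1, 1 to 2, 2 to 4, 4 to 8 and at least 8-fold. The 2452 genes under 1-fold held 184 of the lower and 412 of the higher calls. The parental control library held only 1238013 counts, and the 4-fold fits above used it. Over it 1246 genes lay at 4 to 8-fold and 2962 at 8-fold or more, against 671 and 334 over the parental arsenite library. The 4-fold set therefore depended on the background chosen. Over the parental arsenite library the medians were 0.14, −0.03, −0.08, −0.13 and −0.16, and the share of lower genes rose from 5.38% to 28.7%. In single libraries the most minus the least enriched bin was −0.26, −0.55 and −0.19 in Y396E and −0.06, −0.23 and 0.28 in RQ with the parental arsenite library, which overlapped. At each replicate number the Y396E value was below the RQ value.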

How the data were processed

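RIP-seq libraries of mCherry-IGF2BP1 in HCT116 cells were analysed, 25 in all, of which 23 carry the fusion. The authors precipitated the protein with RFP-Trap beads, depleted ribosomal RNA, made stranded libraries, aligned reads of 100 bases to hg38 with STAR 2.7.11b and counted them on exons per gene with featureCounts (Subread 2.0.6). The deposited values are raw counts for 63086 genes, annotated with GENCODE 46. Reads that map to several places are left out by default in featureCounts, which lowers the counts of genes that have near-identical copies. Symbols, biotypes, positions and reference sequence came from GENCODE 44, in which 545 identifiers were not found. The 20044 protein-coding genes were kept.

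TMM factors and tests were computed from these counts with edgeR 4.0.16 in R 4.3.3 (limma 3.58.1, DESeq2 1.42.0), and plots with matplotlib 3.10.9. As in the authors' methods, genes entered the test if their CPM exceeded 10 in 11.5 or more of the 23 mCherry libraries (8734). A quasi-likelihood model with 8 groups and no covariates gave Y396E minus RQ in control, in arsenite, and their interaction, with Benjamini-Hochberg adjustment over all genes. CPM printed per library use TMM factors of the 23 mCherry libraries, and the parental libraries were scaled against the same reference library. On simulated counts for the control contrast, changes of 1 on the log2 scale were called in 86.6% and of 0.5 in 31.3%. That simulation changed 200 of 8734 genes and drew libraries independently. The data had 2156 calls and shared variation between same-numbered libraries, so these rates describe the simulated setting only.

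Total counts in the 6 compared libraries ranged from 23358347 to 60273548. The limit of 3 counts covers counting error only. Named genes were the IGF2BP genes and those the study's text on RIP-seq names, IGF2, the 12 lowest and 12 highest called genes without overlap, and up to 4 called members of each of 28 gene lists with the largest change; some genes that the rule picks are not reported here, and genes named by their interaction with arsenite were added after their values were seen. The members and lists were chosen with earlier results of these data known. Lists are described by counts and medians and were not tested as sets. Alternatives were other scalings, tests, filters and sets of libraries, the replicate number as a block, each library left out, and a fit without chromosome 8.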

Additional observations from a re-analysis of the deposited data

Results flagged for a closer look

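Genes whose Y396E-minus-RQ difference was not the same in control and in arsenite by the interaction term are listed here, with the adjusted p from edgeR. HERPUD1, an ER stress protein, was at 0.64 in control and −0.75 in arsenite (interaction −1.39, adjusted p = 0.024) and was called in 15 of 23 alternatives. ATF3 turned from 0.73 to −0.55 (interaction −1.28, adjusted p = 0.00073) and was called in 24 of 24. TRIB3 went from −1.12 to −1.86 (interaction −0.73, adjusted p = 0.035), called in 11 of 24. HSPA1B went from 0.93 to −0.42 (interaction −1.35, adjusted p = 0.039), called in 10 of 23, and its near-identical copy HSPA1A makes its counts uncertain. HSPE1 went from −1.0 to −0.19 (interaction 0.81, adjusted p = 0.049), called in 6 of 23. CCNA2 went from 1.09 to −0.33 (interaction −1.42, adjusted p = 0.00019), called in 23 of 23.

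SESN2 and KRT80, chosen after their values were seen, had the lowest and the highest interaction. SESN2 was at −1.95 (adjusted p = 5.8e-06), called in 24 of 24 alternatives. KRT80, an epithelial keratin, had an interaction of 1.46 (adjusted p = 0.0055) and was called in 21 of 23. Its control values overlapped, with 84.9, 84.5 and 92.8 CPM in Y396E and 66.7, 69.3 and 93.3 in RQ. In arsenite they did not, with 28.8, 19 and 28 CPM in Y396E and 7.35 and 8.75 in RQ.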

How the results depend on the processing

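In control, the 1046 lower genes became 550 with total counts, 465 with glmTreat, 558 among genes at least 4-fold over the parental precipitate, 620 with only the compared groups and 630 with only control libraries, and the 1110 higher genes 2295, 380, 413, 505 and 413. With TMM factors from parental-level genes 658 were higher. Leaving out 1 library gave 757 to 1178 lower and 760 to 1135 higher genes. In arsenite, lower genes numbered 603 with total counts, 393 with glmTreat, 533 among 4-fold genes, 1866 with only the compared groups and 1904 with only arsenite libraries, against 949, and higher genes 1044, 118, 135, 1628 and 1448, against 476. Higher genes were 237 with TMM over parental-level genes and 739 with DESeq2's Wald test. Without 1 library, 325 to 789 were lower and 75 to 289 higher. The 34 interaction genes became 54 with total counts, 19 with TMM over parental-level genes, 92 with the Wald test, 4 with glmTreat, 13 with filterByExpr, 17 among 4-fold genes, 3 with only the compared groups and 4 to 38 without 1 library. The 865 shared calls became 304 with glmTreat, 414 among 4-fold genes and 328 to 877 without 1 library. The enrichment difference moved from −0.16 to −0.29 with the parental arsenite library. Fewer genes or libraries enter some of these fits; otherwise the cause was not tested.

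Deviations of same-numbered Y396E and RQ control libraries correlated at 0.0573, 0.58 and 0.469. Replicates 2 and 3 thus varied alike by number, with −0.515 and −0.511 when these 2 numbers were crossed, and replicate 1 did not. The main fit took no account of the number, so its calls leave this shared variation in the spread. RQ replicate 1 correlated best with Y396E replicate 2 (0.169), and the other control libraries with their own number. With the replicate block, control calls were 1341 lower and 1439 higher, arsenite calls 1471 and 920, shared calls 1369 and interaction calls 223. With the genes of chromosome 8 left out, chosen after seeing the data, 976 were lower and 995 higher.

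Of 121 named genes called, 83 kept direction and call under all 14 settings and left-out libraries, 38 lost the call at least once, and 0 reversed. Uncalled EIF2A turned to 0.16 with total counts and 0.03 with all biotypes, and lay at −0.06 to 0.04 without 1 library. MYC turned to 0.09 with total counts.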
